A study of Mus musculus with 7 samples.

Results

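The SOCS family of feedback inhibitors has 8 genes in the mouse, Socs1 to Socs7 and Cish, and all 8 were among the 18193 genes measured. They were chosen by name, as the probe sets that carry a single gene symbol of the family. There were 24 such probe sets, and each gene was represented by the one with the highest mean over the 7 arrays, with the others given beside it. Messenger RNA was measured on Affymetrix arrays in macrophages grown from mouse bone marrow. The cells were first kept for 24 h with a bacterial product or without one (naive cells), and then for 3 h with a product or without one. MDP, muramyl dipeptide, is a piece of bacterial peptidoglycan that is sensed in the cytosol through Nod2. Pam3CSK4 is a synthetic lipopeptide recognised by Tlr2 together with Tlr1 on the plasma membrane. The 7 groups, with 1 array each, were Pam3CSK4 then Pam3CSK4, MDP then Pam3CSK4, naive with Pam3CSK4, Pam3CSK4 then MDP, MDP then MDP, naive with MDP, and naive unstimulated. The labels write the concentrations as 10 mg/ml MDP and 1 mg/ml Pam3CSK4, in which the prefix of the unit may have been altered from micro, so the doses are uncertain. They give no strain, sex or age of the mice. No group had a pretreatment without a second ligand, so what a pretreatment left behind and what the second ligand added cannot be told apart.

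SOCS proteins are made in response to cytokines and then block the same kind of signal. Cytokine receptors activate JAK kinases, which phosphorylate STAT transcription factors, and several SOCS genes are STAT targets. Each SOCS protein has an SH2 domain that binds phosphotyrosine and a SOCS box that recruits elongins and a cullin, so that bound proteins are ubiquitinated. SOCS1 and SOCS3 also carry a short region that inhibits JAK kinases directly. SOCS1 limits interferon signalling and has been linked to loss of the Toll-like receptor adaptor encoded by Tirap. SOCS3 binds the shared interleukin-6 receptor chain gp130 and the G-CSF receptor and does not act on the interleukin-10 receptor. CIS, the product of Cish, and SOCS2 act mainly on receptors that use STAT5. SOCS4 and SOCS5 have been tied to the epidermal growth factor receptor, and SOCS6 and SOCS7 to insulin and growth factor receptor signalling.

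The promoters of Socs3, Cish and Socs1 are shown because these genes were the members with 2-fold or larger differences on stimulation of naive cells. Promoter windows from the RefSeq table of build GRCm38.p6 were examined for 4 of the 8 members, the fourth being Socs4. Those of the other 4 members were not examined. Each window runs from 250 bases before the annotated start to 20 bases after it, and capitals mark matches to TTCNNNGAA, the palindrome that STAT factors bind, or to GAAANNGAA, a repeat of the kind that interferon regulatory factors bind, on either strand. For Socs3 the annotated start lies inside the gene's RefSeq span.
Socs3, chr11:117969347-117969616, minus strand: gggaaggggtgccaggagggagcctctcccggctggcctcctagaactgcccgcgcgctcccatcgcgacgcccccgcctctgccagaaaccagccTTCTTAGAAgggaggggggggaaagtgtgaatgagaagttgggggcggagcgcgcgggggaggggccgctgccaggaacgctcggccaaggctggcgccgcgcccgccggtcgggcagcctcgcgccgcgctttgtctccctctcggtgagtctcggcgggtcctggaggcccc
Cish, chr9:107296409-107296678, plus strand: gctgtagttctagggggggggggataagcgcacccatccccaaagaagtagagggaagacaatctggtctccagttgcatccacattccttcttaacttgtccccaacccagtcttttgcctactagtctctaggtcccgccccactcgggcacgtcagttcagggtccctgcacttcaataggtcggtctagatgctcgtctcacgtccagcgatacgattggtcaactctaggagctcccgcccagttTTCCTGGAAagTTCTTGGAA
Socs1, chr16:10785517-10785786, minus strand: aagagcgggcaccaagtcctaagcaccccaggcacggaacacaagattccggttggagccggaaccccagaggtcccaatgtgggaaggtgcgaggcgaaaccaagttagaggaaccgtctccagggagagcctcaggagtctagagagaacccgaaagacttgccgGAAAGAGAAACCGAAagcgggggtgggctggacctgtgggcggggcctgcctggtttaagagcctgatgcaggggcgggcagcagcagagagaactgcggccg

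The Socs3 window held 1 STAT match, TTCTTAGAA, from position -154 to -146 relative to the start. In the Cish window 2 STAT matches stood beside each other at the start itself, TTCCTGGAA from 1 to 9 and TTCTTGGAA from 12 to 20. The Socs1 window held no STAT match but 2 overlapping matches of the second motif, from -83 to -75 and from -77 to -69. The Socs4 window held neither. Of all 32851 promoter windows of this length, 7.58% held the STAT letters at least once and 0.368% at least 2 times, and 7.76% held the second motif at least once and 0.551% at least 2 times. A match describes letters in the window and not a bound site.

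Array medians ran from 5.48 to 5.55 on the log2 scale, and all 8 representing probe sets lay above the median on all 7 arrays. The 8 macrophage markers were above it throughout, with a mean of 12.6 to 13.2. Of the 6 neutrophil markers 5 were also above it on all arrays, as were Cd3e, Cd4 and Cd8a of the T and NK cell list, Cd79b and Pax5 of the B cell list, Flt3 of the dendritic cell list and Col1a2 and Dcn of the stromal list. S100a8, a neutrophil and myeloid marker, read 12.13 and 12.15 with Pam3CSK4 pretreatment and 10.98 to 11.34 on the other arrays. Ltf, of neutrophil granules, read 6.41 after Pam3CSK4 then Pam3CSK4 and 7.57 in naive cells given Pam3CSK4. Both were past 2-fold between these groups, in opposite directions, and the mean of the neutrophil list lay between 8.07 and 8.47. In the same lists Mpo (neutrophils), Cd3g and Ncr1 (T and NK cells), Ms4a1 (B cells), Cd209a, Xcr1 and Zbtb46 (dendritic cells), Col1a1, Col3a1 and Lum (stromal cells), and Cpa3 and Mcpt4 (mast cells) were never above the median. The mean of the 5 stromal markers was 5.71 and 5.82 on the arrays with Pam3CSK4 pretreatment, against 5.22 to 5.34 on the other 5. Only Dcn was past 2-fold against naive cells given the same ligand. Col1a2, Col3a1 and Lum also read highest on these 2 arrays, by less, and Col1a1 did not. The mean of the macrophage markers was 13.2 on both of these arrays and 12.6 to 13.0 on the others. Among these markers Fcgr1, Itgam and Mertk were at least 2-fold higher after Pam3CSK4 then Pam3CSK4 than in naive Pam3CSK4 cells (2.41% of all genes). Mertk read 9.89 in unstimulated cells, and 8.71 with MDP and 7.60 with Pam3CSK4 in naive cells. The part of these lists in the results was not tested. Control probe sets for 18S RNA had a median of 10.9 on the array of Pam3CSK4 then Pam3CSK4 and of 8.57 to 9.29 on the others. Every difference given here is between single arrays, so none can be set against a spread between cultures, and precision is limited by having 1 array a group. In bulk RNA, fewer cells of a type and less RNA per cell cannot be told apart.

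Socs3 covered the widest span of the family, from 6.63 to 13.47 on the log2 scale. It stood at 13.47 in cells given MDP then Pam3CSK4 and at 13.43 in naive cells given Pam3CSK4. Its levels were 11.40 after Pam3CSK4 then MDP and 11.19 after Pam3CSK4 then Pam3CSK4. Cells given MDP then MDP had 7.21, naive cells given MDP had 9.45, and naive unstimulated cells had 6.63. The arrays thus formed a high pair with Pam3CSK4 given to naive or MDP-pretreated cells, a middle pair with Pam3CSK4 pretreatment, and a low pair of unstimulated cells and cells given MDP a second time, with naive MDP between the middle and the low pair.

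All 3 Socs3 probe sets kept this grouping. The probe set 1416576_at, the one without a suffix for cross-hybridisation, read 10.71, 13.31 and 13.38 with Pam3CSK4 after Pam3CSK4, after MDP and in naive cells, and 11.19, 6.97 and 9.06 with MDP after the same pretreatments, against 6.91 in unstimulated cells. The probe set 1456212_x_at read 11.01, 12.97 and 13.11 with Pam3CSK4 and 11.16, 6.66 and 9.06 with MDP in the same order, against 6.19 unstimulated. They differed most on the unstimulated array, so the difference from unstimulated depended on the probe set, and the specific one gave the smaller values. For naive cells given MDP it was 2.82 with the representing probe set, 2.15 with 1416576_at and 2.87 with 1456212_x_at, and for naive cells given Pam3CSK4 it was 6.80, 6.47 and 6.92. The residual after MDP then MDP was 0.58, 0.06 and 0.48 over unstimulated, so by the specific probe set Socs3 stood close to the unstimulated level there.

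The 2 pretreatments were followed by opposite differences of Socs3 when MDP was the second ligand. Cells given MDP then MDP differed from naive cells given MDP by -2.24 on the log2 scale (4.71-fold lower), the third lowest difference of the 18193 genes. Cells given Pam3CSK4 then MDP stood 1.95 higher than naive cells given MDP (3.85-fold). With Pam3CSK4 as the second ligand, the difference of Socs3 from naive cells was -2.24 after prior Pam3CSK4, or -2.67 by the specific probe set, and 0.04 after prior MDP. Socs3 after Pam3CSK4 then Pam3CSK4 was 23.7-fold over the unstimulated array, or 14.0-fold by the specific probe set.

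Socs1 had another order of levels, with the highest in cells pretreated with Pam3CSK4. It read 10.00 after Pam3CSK4 then MDP and 9.30 after Pam3CSK4 then Pam3CSK4. Next came 8.80 after MDP then Pam3CSK4 and 8.21 in naive cells given Pam3CSK4. Cells given MDP then MDP had 7.26, naive cells given MDP 7.83 and unstimulated cells 6.73. A first exposure gave a difference of 1.48 with Pam3CSK4 and 1.10 with MDP over unstimulated, so naive Pam3CSK4 and naive MDP cells were only 0.38 apart. Pretreatment with Pam3CSK4 was followed by a level 4.50-fold higher with MDP and 2.13-fold higher with Pam3CSK4 than in naive cells given the same ligand. After MDP then MDP, Socs1 differed by -0.57 from naive cells given MDP, and after MDP then Pam3CSK4 by 0.59 from naive cells given Pam3CSK4. The array has 1 probe set for Socs1, 1450446_a_at, so no second reading could be set beside it. With 32 added to the linear values the difference of naive MDP from unstimulated was 0.91, short of 2-fold.

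The 2 arrays with Pam3CSK4 pretreatment were close to each other, and Socs1 was among the genes furthest apart between them. It differed by -0.70 with Pam3CSK4 against MDP as the second ligand, the ninth lowest difference of 18193 genes. At 2-fold, 0.0055% of all genes differed between these arrays, and none of the 8 members did. Socs3 differed by -0.20 between them, or by -0.47 with the specific probe set, where percentile 1 of all genes was -0.36. Socs4 differed by 0.38, where percentile 99 was 0.37, but by 0.01 with its second probe set, 1421273_at. Cish differed by -0.04.

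Cish was high on 2 arrays only. It read 9.04 after MDP then Pam3CSK4 and 8.58 in naive cells given Pam3CSK4, and the other 5 arrays lay between 6.92 and 7.28. These were 7.24 after Pam3CSK4 then Pam3CSK4, 7.28 after Pam3CSK4 then MDP, 6.93 after MDP then MDP, 7.28 in naive cells given MDP and 6.92 in unstimulated cells. Naive cells given Pam3CSK4 were 3.17-fold over unstimulated, and naive cells given MDP differed from unstimulated by 0.36. With prior Pam3CSK4, a second exposure to it left Cish 2.54-fold lower than in naive cells and 0.32 over unstimulated. With prior MDP, it stood 0.45 above naive cells given Pam3CSK4. Unlike Socs3, Cish was not 2-fold over unstimulated after Pam3CSK4 then Pam3CSK4, where Socs3 was 4.56 over unstimulated. Cish also has 1 probe set, 1448724_at.

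By its representing probe set, Socs5 was the member at least 2-fold lower with Pam3CSK4 pretreatment for both second ligands. By 1423350_at it read 7.49 after Pam3CSK4 then Pam3CSK4 and 7.62 after Pam3CSK4 then MDP, against 8.58 to 9.09 on the other 5 arrays. Against naive cells given the same ligand the difference was -1.09 with Pam3CSK4 and -1.05 with MDP. Both arrays also came out lowest on the second probe set, 1423349_at, but by less, with 7.64 and 7.58 against 8.07 to 8.20 elsewhere, which gives -0.42 and -0.52. The mean of the 2 probe sets gave -0.76 and -0.79, so the 2-fold difference of Socs5 rests on 1 probe set.

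By its representing probe set Socs6 was lower on all 4 arrays with Pam3CSK4 than on the other 3, by an amount that also depended on the probe set. By 1450129_a_at it read 9.37, 9.17 and 9.14 with Pam3CSK4 after Pam3CSK4, after MDP and in naive cells, and 9.32, 9.81 and 9.56 with MDP after the same pretreatments, against 9.95 unstimulated. Naive cells given Pam3CSK4 differed from unstimulated cells by -0.80 by this probe set. By 1435492_at the difference was -1.68 (3.20-fold lower), with 6.06 against 7.73, and by 1452764_at it was -0.27. The 2 lowest arrays of 1435492_at were also those of the representing probe set, Pam3CSK4 in naive and in MDP-pretreated cells, but 1452764_at was lowest after Pam3CSK4 then Pam3CSK4.

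The other 3 members differed little between arrays. Socs7 ranged over 0.81, highest at 9.84 after MDP then Pam3CSK4 and lowest at 9.04 unstimulated, and its second brightest probe set, 1434834_at, had the same highest and lowest array (8.87 and 7.98). Socs4 ranged over 0.47, with 8.87 after Pam3CSK4 then MDP and 9.19 to 9.34 on the other arrays. Its second probe set, 1421273_at, had its 2 highest readings, 8.21 and 8.20, with Pam3CSK4 pretreatment and its lowest, 7.53, in unstimulated cells, so the probe sets of Socs4 did not share an order. Socs2 ranged over 0.32 by 1442586_at, from 6.45 to 6.77. Of its 5 other probe sets 4 lay below the array median on every array. The fifth, 1449109_at, was above it on 4 arrays and read lowest, 4.90 and 5.19, with Pam3CSK4 pretreatment, against 5.39 to 5.80 elsewhere.

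**Figure D1:**
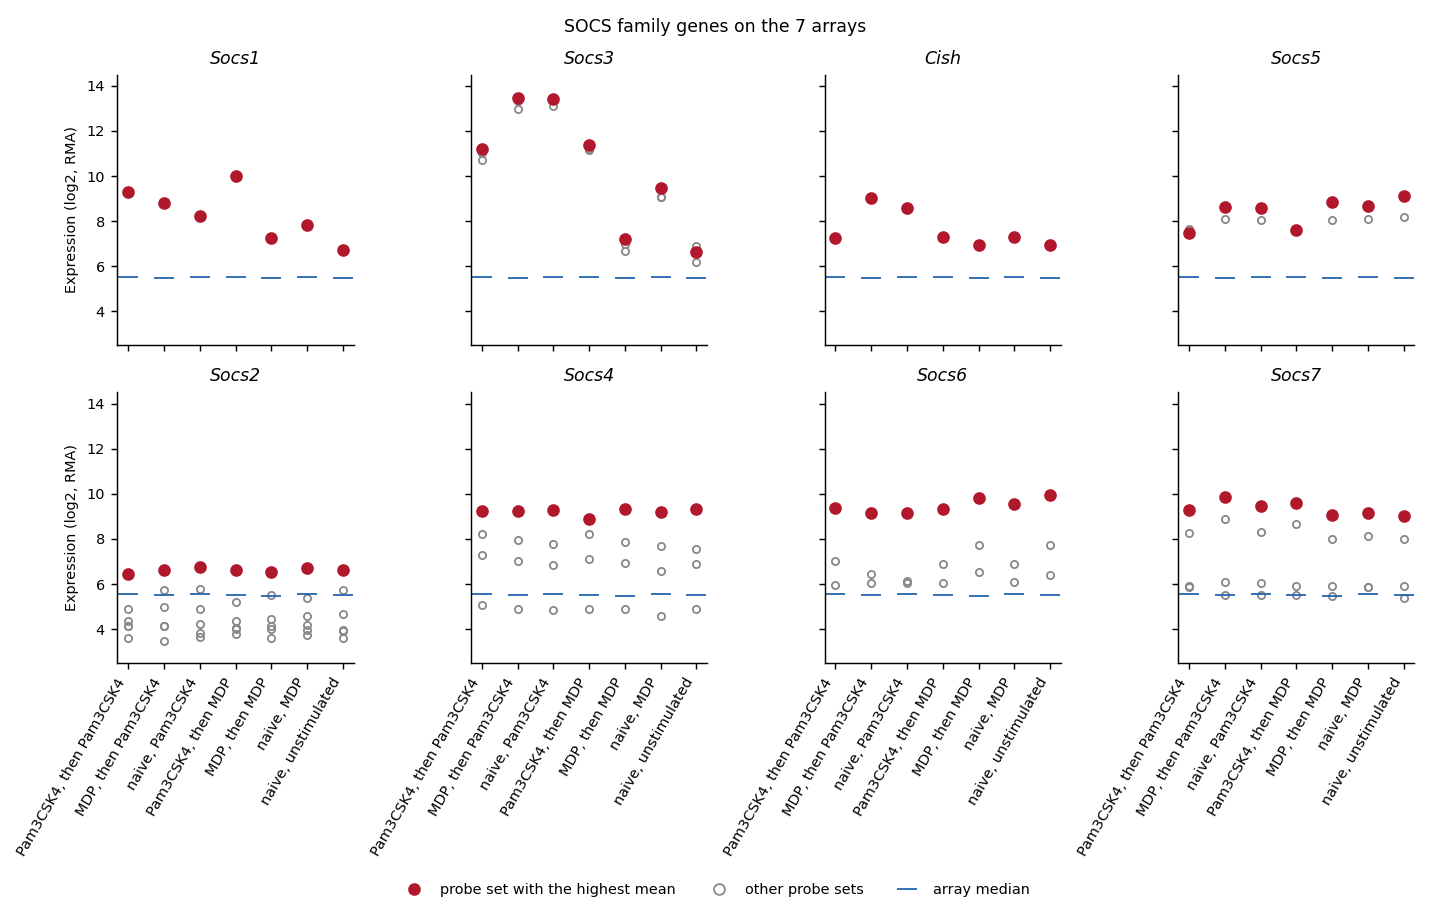
Expression of each SOCS family gene (log2, RMA) on the y axis for the 7 groups on the x axis, 1 array each, with filled points for the probe set of highest mean, open points for other probe sets and bars for the array median. Socs3 reaches 13.47 and 13.43 on 2 Pam3CSK4 arrays, Socs1 is highest at 10.00 after Pam3CSK4 then MDP, and Cish is higher on 2 arrays.

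Counted over the family, 2 of 8 members (Socs3 and Socs1) were at least 2-fold higher in naive cells given MDP than in unstimulated cells, against 0.583% of all genes, and none was 2-fold lower, against 0.17%. At the 3-fold threshold that the study used for induction, Socs3 alone passed with MDP, against 0.22% of all genes. With Pam3CSK4 in naive cells 3 members, Socs3, Cish and Socs1, were at least 2-fold higher than unstimulated (2.27% of all genes) and none was 2-fold lower (1.95%), and Socs3 and Cish passed 3-fold (1.28%). Set directly against naive MDP, naive Pam3CSK4 cells had Socs3 (15.8-fold) and Cish (2.46-fold) at least 2-fold higher, where 1.4% of all genes were, and none 2-fold lower (0.709%).

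With MDP as the second ligand, prior MDP left Socs3 as the 1 member past 2-fold on the low side of naive cells, against 0.291% of all genes, and none 2-fold higher, against 0.385%. Prior Pam3CSK4 left Socs1 and Socs3 at least 2-fold higher (2.14% of all genes) and Socs5 at least 2-fold lower (1.71%). With Pam3CSK4 as the second ligand, prior Pam3CSK4 left Socs1 at least 2-fold higher (2.41%) and Socs3, Cish and Socs5 at least 2-fold lower (2.3%). Prior MDP left none of the 8 past 2-fold in either direction, where 0.297% of all genes were higher and 0.022% lower. By the study's rule for tolerance, which takes induced genes more than 2-fold lower in pretreated cells, Socs3 met it for MDP after MDP and for Pam3CSK4 after Pam3CSK4, and Cish for Pam3CSK4 after Pam3CSK4. The share of all genes that met both parts of this rule was not counted, so these calls have no background beside them. The naive arrays serve in several of these comparisons, so the counts are not independent of each other. The median difference of the 8 members lay between -0.25 and 0.29 over the 7 comparisons, and that of all genes between -0.03 and 0.01.

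**Figure D2:**
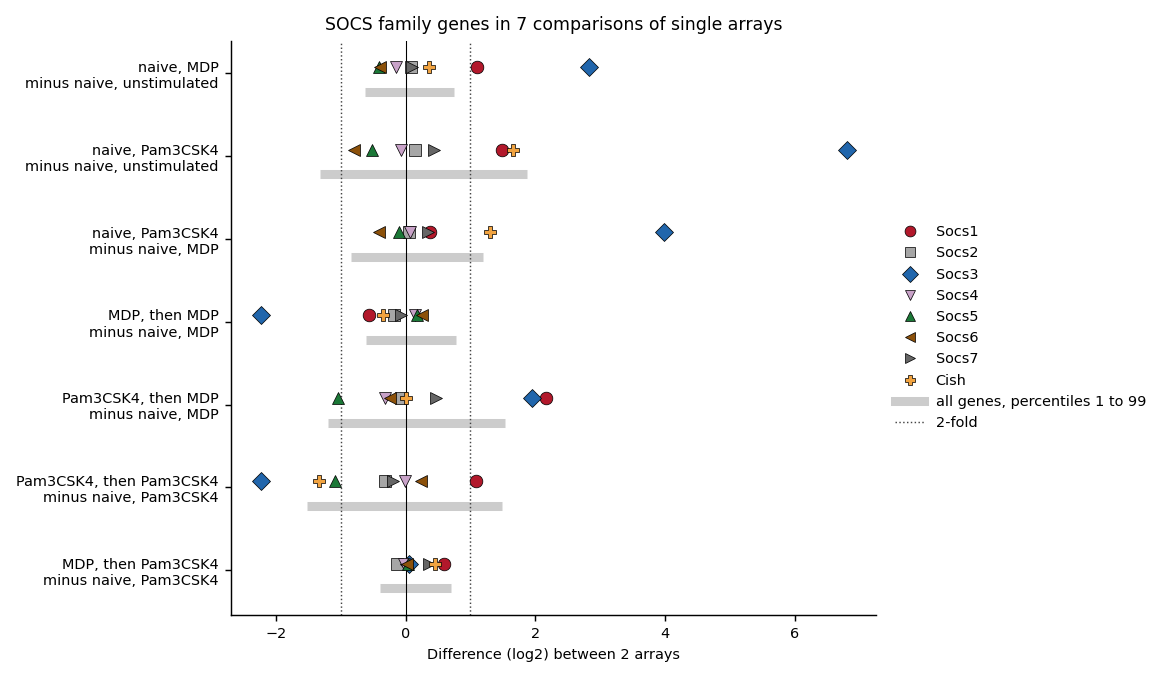
Difference in expression (log2) on the x axis for the 8 members in 7 comparisons of single arrays on the y axis, with grey bars for percentiles 1 to 99 of all 18193 genes and dotted lines at 2-fold. Socs3 lies outside the grey bar in 6 of the 7 comparisons, on the low side with MDP after MDP and Pam3CSK4 after Pam3CSK4 (-2.24 each), and Socs1 and Socs5 are on opposite sides of 0 in both comparisons with Pam3CSK4 pretreatment.

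Of the 8 members 4 ranged over at least 1 log2 unit, and their patterns were set beside those of the 1907 genes that also did so and lay above the array median at least once. Pearson's r over the 7 arrays is given as a description, since all genes share the same arrays. Nearest to Socs3 were Swap70, a guanine nucleotide exchange factor (0.997), Cdc42ep2, which binds the GTPase Cdc42 (0.996), and 4833438C02Rik (0.994). The r value takes no account of size. Swap70 ranged over 1.34, Cdc42ep2 over 5.13 and 4833438C02Rik over 1.68, against 6.85 for Socs3. Nearest to Socs1 were the adhesion molecule Nectin2 (0.992), Cd274, which encodes the coinhibitory ligand PD-L1 (0.984), and Pkp4 (0.984). Cd274 read 12.08 after Pam3CSK4 then Pam3CSK4, 12.23 after Pam3CSK4 then MDP and 8.59 in unstimulated cells, the same highest and lowest arrays as Socs1. For Cish they were Plat, tissue plasminogen activator (0.997), Il12b, a subunit of interleukins 12 and 23 (0.994), and Adamts4, a metalloproteinase (0.993), all of which were above the array median only with Pam3CSK4 in naive or MDP-pretreated cells. For Socs5 they were the B cell adaptor gene Bank1, the sialyltransferase St6gal1 and Ssbp3 (0.995 each). Among the 4 members themselves, r was 0.846 between Socs3 and Cish, 0.708 between Socs3 and Socs1, 0.283 between Socs1 and Cish and -0.904 between Socs1 and Socs5.

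**Figure D3:**
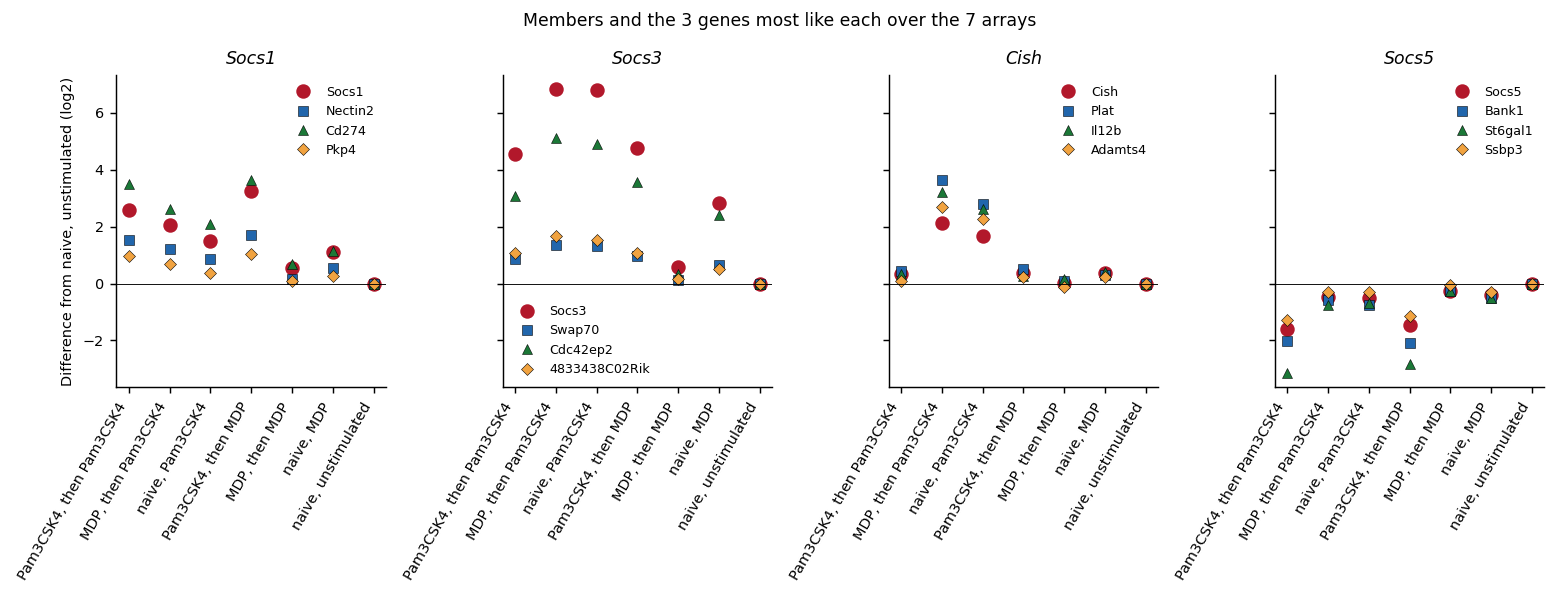
Difference from naive unstimulated cells (log2) on the y axis for Socs1, Socs3, Cish and Socs5 and the 3 genes with the highest Pearson r to each, over the 7 groups on the x axis, 1 array each. Socs1 and Cd274 are highest after Pam3CSK4 then MDP, and Cish and Plat stand clear of 0 on the 2 Pam3CSK4 arrays without Pam3CSK4 pretreatment.

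Cytokines, receptors and other genes of the pathway were taken from lists. Of 17 cytokine genes that signal through JAK and STAT, none was 2-fold higher with MDP in naive cells, where 0.583% of all genes were. With Pam3CSK4 7 of them were, where 2.27% of all genes were, with a list median of 0.35 against 0.00 over all genes. Il6, whose receptor chain SOCS3 blocks, read 9.12 after Pam3CSK4 then Pam3CSK4, 10.79 after MDP then Pam3CSK4, 9.84 in naive cells given Pam3CSK4 and 10.18 after Pam3CSK4 then MDP. The other 3 arrays read 3.41 to 4.31, below their medians, including naive MDP. On that array Socs3 was 7.07-fold over unstimulated, or 4.45-fold by the specific probe set. A relation between Il6 and Socs3 was not tested. Il10, an anti-inflammatory cytokine that acts through STAT3, was 3.07 higher in naive cells given Pam3CSK4 and 0.11 higher with MDP than in unstimulated cells, and it differed by -1.85 after Pam3CSK4 then Pam3CSK4 against naive Pam3CSK4. Csf2, which encodes GM-CSF and acts through STAT5, was at least 1.59 higher in naive cells given Pam3CSK4, counted from the array median because the unstimulated value lay below it, and after Pam3CSK4 then Pam3CSK4 it was again below the median, as in unstimulated cells.

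Among 10 JAK kinase and STAT genes, Jak2 and Stat5a were the 2 past 2-fold with Pam3CSK4 in naive cells over unstimulated ones (6.44-fold and 6.32-fold). Of all genes 2.27% were at least 2-fold higher there. Both were past 2-fold in the other direction after Pam3CSK4 then Pam3CSK4 against naive Pam3CSK4 (-1.13 and -3.04), where 2.3% of all genes were. Stat5a read 11.12 after MDP then Pam3CSK4, 11.13 in naive cells given Pam3CSK4, and 8.06 to 8.94 on the other 5 arrays, so it was high on the 2 arrays on which Cish was high. Stat2 and Stat4 were higher after Pam3CSK4 then Pam3CSK4 than in naive Pam3CSK4 cells, Stat2 by 1.96. Of 19 receptor genes, 4 were at least 2-fold higher with Pam3CSK4 in naive cells, among them Il15ra (5.27-fold) and Il4ra (2.23-fold), where 2.27% of all genes were, with a list median of 0.34 against 0.00. After Pam3CSK4 then Pam3CSK4, 3 were at least 2-fold under naive Pam3CSK4 (2.3% of all genes), Il4ra (-1.37), Il13ra1 and Lifr, which then lay below the array median, and the list median was -0.16 against 0.01. With MDP as the second ligand after Pam3CSK4, Csf3r and Il15ra were higher (2.14% of all genes) and Lifr lower (1.71%) by 2-fold, and Il4ra read 10.48 against 10.47 in naive cells given MDP.

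Genes known to respond to STAT factors were grouped by the factor. With Pam3CSK4 in naive cells 8 of 10 STAT3-associated genes stood 2-fold or more over unstimulated, where 2.27% of all genes did. The list median was 1.41 against 0.00 over all genes, and Pim1 (6.44-fold) and Bcl3 (5.58-fold) were among the 8. With MDP in naive cells none of the 10 was at least 2-fold higher than unstimulated (0.583% of all genes), and the list median was 0.30. After Pam3CSK4 then Pam3CSK4, 5 of the 10 were at least 2-fold under naive Pam3CSK4 (2.3% of all genes), with a median of -0.94 against 0.01. Among 6 STAT5-associated genes 2 were 2-fold higher (2.27% of all genes) and 1 was 2-fold lower (1.95%) with a first Pam3CSK4, with a list median of 0.16 against 0.00, and Pim1 belongs to both lists. These lists were chosen with earlier results of these arrays known and give no independent support.

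Partners of the SOCS box and other inhibitors were also listed. None of the 6 elongin, cullin and ring finger genes was 2-fold different in any of the 7 comparisons, and Cul5 had the widest range among them, 0.60. Rbx1 was above the array median on only 2 of the 7 arrays, so a fall in it could hardly be seen. The share of all genes past 2-fold ran from 0.022% to 2.41% per comparison and direction. Of 27 other SOCS box genes Spsb4 was 2.86-fold lower with Pam3CSK4 in naive cells (1.95% of all genes at least 2-fold lower). After Pam3CSK4 then Pam3CSK4 against naive Pam3CSK4 it was 6.08-fold higher (2.41%), and Spsb1, whose product targets inducible nitric oxide synthase, was 2.80-fold lower (2.3%). After Pam3CSK4 then MDP against naive MDP, Spsb4 was at least 2-fold higher (2.14%). Spsb1 and Asb4, which then lay below the array median, were at least 2-fold lower there (1.71%). Among 12 other inhibitors of JAK and STAT signalling Usp18, a brake on the interferon receptor, was the 1 past 2-fold in the 7 comparisons. It was higher with prior Pam3CSK4 when MDP (3.10-fold, against 2.14% of all genes at least 2-fold higher) or Pam3CSK4 (3.54-fold, 2.41%) followed. With prior MDP it was higher when Pam3CSK4 followed (2.13-fold, 0.297%). Of 7 adaptors and receptors bound by SOCS proteins, Met was at least 2-fold higher in naive cells given MDP (0.583% of all genes) or Pam3CSK4 (2.27%). Tirap stayed within 8.82 to 9.71.

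**Figure D4:**
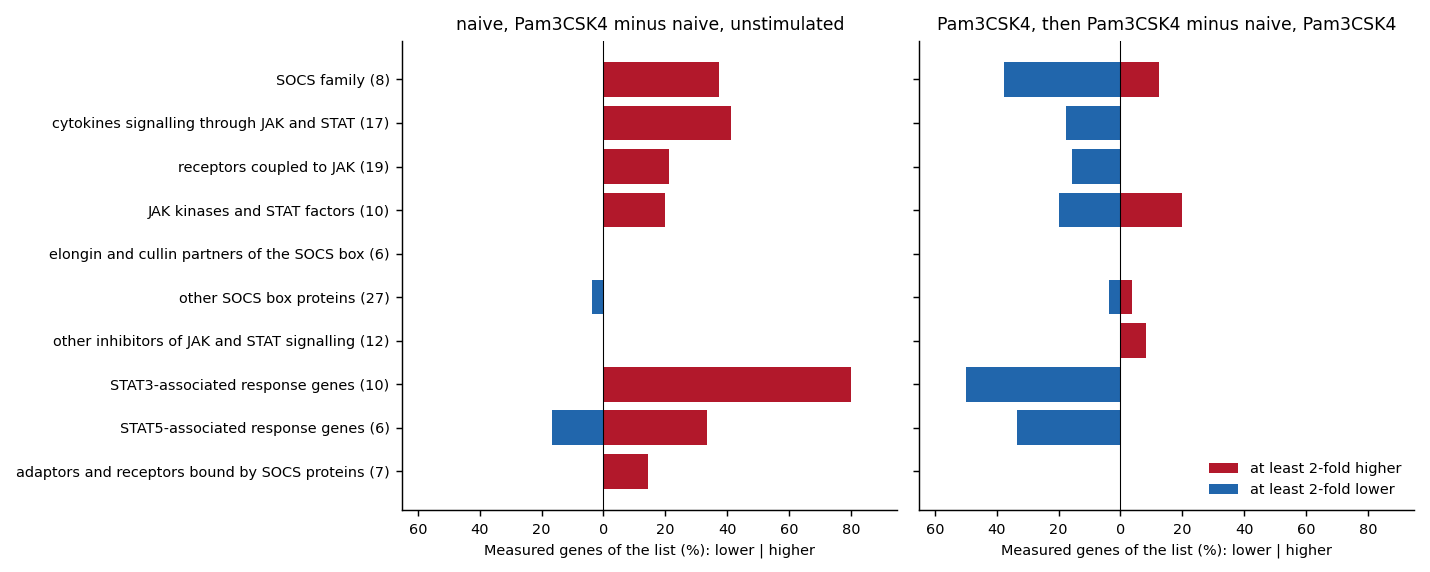
Share of measured genes (%) of 10 lists that were at least 2-fold higher (to the right) or lower (to the left) for naive cells given Pam3CSK4 against unstimulated cells and for Pam3CSK4 then Pam3CSK4 against naive cells given Pam3CSK4, with the number of measured genes in brackets. The STAT3-associated list has 8 of 10 genes higher in the first comparison (2.27% of all genes) and 5 of 10 lower in the second (2.3%).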

How the data were processed

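Total RNA from 7 cultures was labelled and hybridised to Affymetrix arrays, 1 array a group. The deposited values are log2 expression per probe set, computed by the authors with RMA (affy), as the submitters' processing notes list. Versions and the set of arrays normalized together are not given in the sources used here. The 45101 probe sets spanned 2.95 to 15.1, with 0 missing, and were used as deposited. Every label carries replicate number 2, and arrays with other numbers are not analysed here.

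Of the probe sets 64 were controls, 34945 had 1 gene symbol in the platform annotation, 932 several and 9160 none. For each of the 18193 genes the probe set of highest mean stood for the gene. Differences were taken between single arrays, and folds are their antilogs. With 1 array a group there is no test and no p-value. For bounds, values under an array median were raised to that median. All 8 members are named, with up to 4 genes per list by range over the arrays (among those above an array median) and, for a member that ranges over 1 log2 unit, the 3 genes with the highest Pearson r. Il13ra1 and the markers named as never above the median fall outside this rule and were chosen after their values were seen. Members, lists, thresholds and alternatives were chosen with earlier results of these data known. List symbols without a single-symbol probe set, Il27 among them, are not analysed here, and 1 list of response genes is not reported here.

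Alternatives were the mean of all probe sets, and dropping those with suffix s, x or a where a gene had others. Further ones were centring on array medians or housekeeping genes and cyclic loess (span 0.7, 3 iterations). The last were adding 32 to the linear values, raising values below the array median to it, and 3-fold in place of 2-fold. Single probe sets were added after seeing the data. The counting code was run on simulated data whose differences were set clear of the 2-fold threshold. The outcome was thus fixed in advance, and the run checks the code only. Python 3.11.15, numpy 2.4.6, pandas 2.3.3, R 4.3.3 and limma 3.58.1 were used.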

Additional observations from a re-analysis of the deposited data

Results flagged for a closer look

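Socs3 differed in opposite directions in the same contrast, Pam3CSK4 pretreated minus naive, with the 2 second ligands. The pretreated arrays read close to each other, 11.40 with MDP and 11.19 with Pam3CSK4, while the naive arrays read 9.45 with MDP and 13.43 with Pam3CSK4. With MDP as the second ligand Socs3 was thus 1.95 higher on the log2 scale in pretreated cells, and with Pam3CSK4 it was 2.24 lower (-2.24). Both differences are between 2 single arrays, and the difference between them was not tested. Socs1 also had opposite signs in a contrast, but with neither value past 2-fold. For MDP pretreated minus naive it was -0.57 with MDP and 0.59 with Pam3CSK4 as the second ligand. For Pam3CSK4 minus MDP as the second ligand it was -0.70 in Pam3CSK4-pretreated cells and 0.38 in naive cells. These were not tested either.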

How the results depend on the processing

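Over 56 differences (8 members in 7 comparisons) and 7 alternatives, 385 of 392 values kept their side of 2-fold. The 7 that did not concern Socs1, Socs5 and Socs6. Part of the 392 could not change, so the count overstates how stable the differences are. Raising values below the median altered none, since every representing probe set lay above it on all arrays. Averaging could not alter Socs1 or Cish, which have 1 probe set each. Dropping suffixed probe sets could alter only Socs3 and Socs6. The direction turned in 14 values, which belong to 8 differences of Socs2, Socs3, Socs4, Socs6 and Socs7, each at most 0.33 in size as deposited. The widest was Socs4 for Pam3CSK4 then MDP against naive MDP, -0.33 as deposited and 0.28 when its probe sets were averaged. Socs3 for MDP then Pam3CSK4 against naive Pam3CSK4 was 0.04 as deposited and -0.07 with suffixed probe sets dropped. No difference past 2-fold turned its direction. With 32 added to the linear values the count of members past 2-fold with MDP in naive cells was 1 in place of 2, since Socs1 was at 0.91. At 3-fold the count was 1 with MDP in naive cells, 1 for naive Pam3CSK4 against naive MDP, and 1 for Pam3CSK4 then Pam3CSK4 against naive Pam3CSK4, in place of 2, 2 and 4. It was also 2 in place of 3 for naive Pam3CSK4 against unstimulated (without Socs1) and for Pam3CSK4 then MDP against naive MDP (without Socs5). The stricter threshold by construction calls fewer.

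Socs5 fell short of 2-fold with Pam3CSK4 pretreatment before MDP when its probe sets were averaged (-0.79), with housekeeping centring (-0.93) and with 32 added (-0.94), and before Pam3CSK4 when averaged (-0.76) and with 32 added (-0.97). Socs6 passed 2-fold with Pam3CSK4 in naive cells (-1.68) when its suffixed probe set, 1450129_a_at, was dropped, which leaves 1435492_at. The suffix alone does not make 1435492_at the better reading. The cause of these was not tested beyond the probe sets shown. Housekeeping centring moved the median of all genes by 0.12 for Pam3CSK4 then MDP against naive MDP and by under 0.1 in the other 6 comparisons. No paired analysis was possible because all arrays carry the same replicate number and each group has 1 array. For the same reason no replicate could be left out.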
